A study of Saccharomyces cerevisiae with 12 samples.

Results

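The effect of a single amino acid substitution in Sac3, R288D, on transcript levels was measured in budding yeast (Saccharomyces cerevisiae). For this, 3 samples with a plasmid for the substituted protein were compared with 3 samples with a plasmid for wild type Sac3. These 6 samples are all those labelled with either plasmid among the 12 RNA sequencing samples of the series. Of 7126 features in the deposited table, the 6124 with a mean of at least 1 RPKM (reads per kilobase of exon, scaled to the size of the library) over the 12 samples were compared. The table's features just inside that limit were YLL044W at 1.001 RPKM, and just outside it YLR339C and YBR144C at 0.9993.

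Both groups were sac3∆ strains, so the chromosomal SAC3 gene was deleted in each, and both grew untreated in synthetic medium without leucine, which keeps the pRS315 plasmid. The plasmid of the wild type group is labelled pRS315 13MYC-SAC3, and that of the R288D group pRS315 Sac3 R288D. No label names a MYC tag on the R288D plasmid, so a difference in tag and the substitution itself cannot be told apart here. The remaining 6 samples are a sac3∆ strain with the empty vector, which has no Sac3 protein, and a cdk8∆ strain with the empty vector, which keeps its native SAC3. Each group has 3 samples, and nothing in the labels says that they were separate cultures, so the p-values measure only the spread between these samples, which may be technical.

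Sac3 is the scaffold of TREX-2, an mRNA export complex at the inner face of nuclear pores that holds Thp1, Sem1, Cdc31 and Sus1. Mediator is the coactivator that carries signals from DNA-bound transcription factors to RNA polymerase II, and Med31, encoded by SOH1, is a subunit of its middle module. The title of the series names the Med31 submodule as a docking site of TREX-2. The comparison asks how far transcript levels shift when the plasmid encodes Sac3 with 1 substituted residue.

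Depth recovered from the table was 16290000 to 21290000 reads for the wild type samples and 16180000 to 17660000 reads for the R288D samples. The values carry a library scaling of 0.864 to 0.892 in wild type and 0.967 to 0.991 in R288D, and undoing it moved the median change over all features from 0.02 to 0.16 on the log2 scale and the share of calls that were higher from 51.8% to 75.8%. With the sample medians set equal that share was 38.8%. Changes are therefore given relative to the deposited scaling, as differences of log2(RPKM + 1) with the limma standard error, which understates the change of scarce transcripts. R288D replicate 2 stood apart from the other R288D samples: its median absolute log2 difference was 0.156 from replicate 1 and 0.133 from replicate 3, against 0.0926 between those 2 samples and 0.0769 to 0.0924 between wild type samples. Its ribosome biogenesis transcripts lay below the mean of the other 2 samples by a median of -0.30, its glucose-repressed transcripts above it by 0.53, and its zinc, inositol and sulfate transcripts within 0.02.

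SAC3 (YDR159W, chromosome IV, 771877 to 775782, plus strand), the gene on the plasmid, was read at 51.3, 53.5 and 48.9 RPKM in the wild type samples and at 64.9, 62.5 and 63.8 RPKM in the R288D samples. All R288D values lay above all wild type values, and the sac3∆ empty-vector samples, at 0.0150, 0.0931 and 0.0294 RPKM, were near 0. SAC3 RNA was 0.31 ± 0.06 higher on the log2 scale in R288D (limma, adjusted p = 6.85e-04, n = 3 per group). RNA of the substituted gene was thus not lower than that of wild type, and the amount of protein was not measured. With a pseudocount of 0.1 the difference was 0.31 and missed the threshold (limma, adjusted p = 0.0983).

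In all, 3108 of the 6124 features differed between R288D and wild type at an adjusted p under 0.05 (50.8%), 1611 higher (26.3%) and 1497 lower (24.4%). Most changes were small: 75 features were called and at least 2-fold higher (1.22%) and 53 at least 2-fold lower (0.865%), 128 in all (2.09%). The 3 R288D values lay beyond all 3 wild type values for 54.8% of features and beyond all 3 sac3∆ values for 12.0%. With R288D set directly against the empty-vector sac3∆ samples, 84 features differed (1.37%), 64 higher (1.05%) and 20 lower in R288D (0.327%). That count depended on which samples entered: it was 17 with only those 2 groups in the fit, 468 without R288D replicate 2 and 53 without sac3∆ replicate 1. Of the genes described here as different from sac3∆, besides SAC3, INO1, ITR1, OPI3, PSD1, CHO1, CDS1, ZRT1, SAM2, PRM1, SSA3, FRE7, CTR1, FIT2, COS8 and YNR064C kept that call with only the 2 groups in the fit, and the others lost it. The sac3∆ samples themselves differed from wild type at 3156 features (51.5%) and the cdk8∆ samples at 3802 (62.1%). Those comparisons share the wild type samples with the R288D comparison, so their values are only set side by side. In what follows a transcript that "rose" or "fell" passed the limma threshold against wild type.

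**Figure D1:**
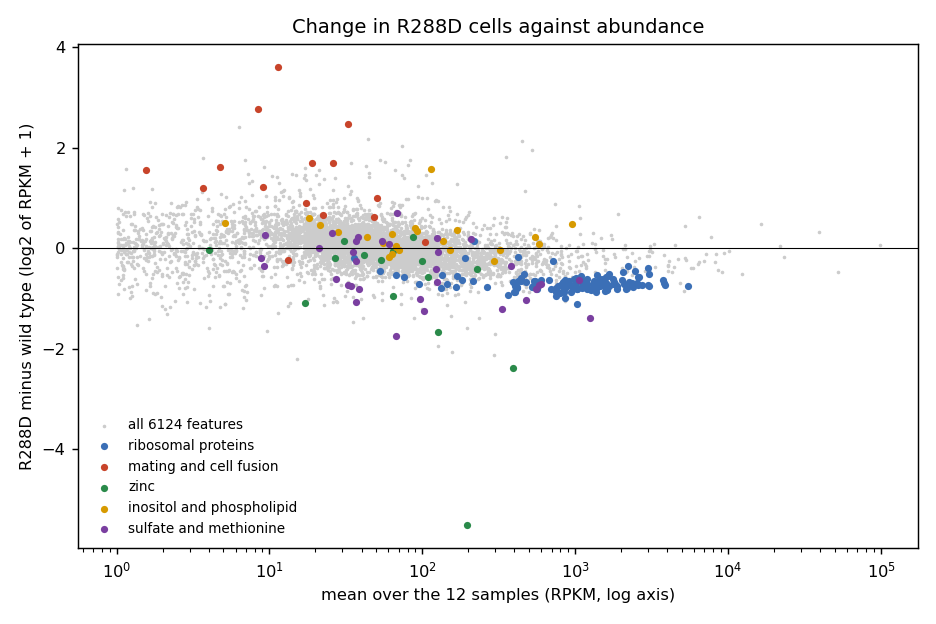
Each point is 1 of the 6124 features, with its mean RPKM over the 12 samples on a log axis and the log2 change of R288D against wild type on the vertical axis; colours mark members of 5 gene lists and grey all other features. Ribosomal protein genes form a band below 0 at the abundant end, ZPS1 is the lowest point at -5.52 and FIG1 the highest at 3.61.

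Among the TREX-2 genes the changes of the partners were small. CDC31, the centrin subunit, rose by 0.45 and THP1, which forms the nucleic acid binding surface with Sac3, by 0.24, while SEM1, shared with the proteasome, fell by 0.23, a call lost without wild type replicate 1 (-0.20) or 3 (-0.22) or R288D replicate 2 (-0.17). Under quantile normalization the calls of CDC31, THP1 and SEM1 were lost. SUS1, shared with the SAGA deubiquitinating module, did not pass (-0.03 ± 0.08). The large exception was THP3, whose product forms a separate complex with Csn12. THP3 was at 48.6, 50.2 and 52.3 RPKM in wild type and at 17.0, 16.6 and 18.5 RPKM in R288D. The groups did not overlap, the ratio of the means was 0.346 and the log2 change was -1.48 ± 0.05 (limma, adjusted p = 3.17e-09). THP3 stood at 17.3 ± 0.604 RPKM in sac3∆, and its partner gene YJR084W (CSN12) did not pass at -0.13 ± 0.05, but was called lower with medians set equal (-0.20) and under quantile normalization (-0.22).

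Mediator subunit genes moved by at most 0.31 in either direction. Among the kinase module genes, SRB8, of Med12, rose by 0.29, SSN2 (Med13) by 0.20 and SSN3, which encodes the Cdk8 kinase, by 0.19, while SSN8 (cyclin C) did not pass at -0.16 ± 0.07 but was called lower with medians set equal (-0.24), under quantile normalization (-0.23) and without R288D replicate 2 (-0.21). Of the 10 middle module genes 2 rose, RGR1 (Med14) by 0.19 and ROX3 (Med19) by 0.21, and 2 fell, CSE2 (Med9) by 0.31 and SRB7 (Med21) by 0.24. These counts are close to the shares of all features (26.3% higher and 24.4% lower) and turned with the scaling, to 8 rises and no fall with the library scaling undone and to no rise and 2 falls with medians set equal. Single samples carried several of these calls: SSN3 lost its call without any 1 of the wild type samples (0.19 each time) or R288D replicate 2 (0.14) or 3 (0.21), ROX3 without wild type replicate 3 or R288D replicate 3 (0.18 each), CSE2 without wild type replicate 1 (-0.20) or 3 (-0.32) or R288D replicate 1 (-0.24), and SRB7 without wild type replicate 1 (-0.20) or 2 (-0.25) or R288D replicate 2 (-0.15). The 6 middle module genes that did not pass ranged from 0.02 to 0.17. SOH1, the gene of Med31, was among them, with 36.1, 33.6 and 34.5 RPKM in wild type and 37.0, 40.4 and 40.4 RPKM in R288D. All 3 R288D values of SOH1 were above all 3 wild type values, by a log2 difference of 0.17 ± 0.09 that did not pass (limma, adjusted p = 0.130). With the library scaling undone SOH1 was called, at 0.32 (limma, adjusted p = 0.00738). Of the 11 head and tail genes 2 rose and 3 fell, against 3 and 0 with the scaling undone and 1 and 5 with medians set equal. SAGA genes, which encode the histone acetyltransferase coactivator, had 6 rises and 1 fall among 19, where 26.3% and 24.4% of all features rose and fell. The counts were 11 and 0 with the library scaling undone and 4 and 4 with medians set equal. The rises were led by HFI1 at 0.48, SPT3 at 0.44 and SGF73 at 0.38.

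The deepest falls were in zinc genes. Yeast takes up zinc through Zrt1 and Zrt2 at the plasma membrane and moves it to and from the vacuole through Zrc1 and Zrt3, and the activator Zap1 turns on most of these genes when zinc is short. The sequence shown lies before ZRT1, the high-affinity transporter gene, and carries a Zap1-type motif. It is R64 sequence from RefSeq, 300 to 151 bases before the coding start (chrVII:20678-20827, plus strand), and the capitals mark the match to ACCTTNAAG on both strands, 204 to 194 bases before the start.
ZRT1: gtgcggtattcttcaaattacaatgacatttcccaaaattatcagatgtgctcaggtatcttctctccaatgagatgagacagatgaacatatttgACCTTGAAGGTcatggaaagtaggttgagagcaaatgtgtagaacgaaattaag
The motif was found in the 300 bases before 1.29% of 5655 protein-coding genes and before 2 of the 15 zinc genes, ZRT1 and ZRC1.

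All 15 zinc genes passed the abundance filter. Against wild type 9 fell, 1 rose and 5 did not pass, with a list median of -0.25, where 24.4% of all features fell and 26.3% rose. The falls numbered 7 with the library scaling undone (median -0.10) and 11 with medians set equal (median -0.32). ZPS1 (YOL154W, chromosome XV, 34658 to 35407, plus strand), whose product resembles a secreted zinc metalloprotease, was at 467, 479 and 445 RPKM in wild type and at 6.58, 12.0 and 9.49 RPKM in R288D. It was nearly lost in every R288D sample, with a ratio of the means of 0.0202 and a log2 change of -5.52 ± 0.14 (limma, adjusted p = 2.77e-10), the lowest of all 6124 features. ZRT1 itself (YGL255W, chromosome VII, 20978 to 22108, plus strand) was at 989, 1033 and 957 RPKM in wild type, 192, 207 and 171 RPKM in R288D and 49.7, 44.0 and 50.1 RPKM in sac3∆. The 3 groups were fully separate, with R288D between the others: ZRT1 fell by 2.38 against wild type (limma, adjusted p = 5.15e-10), yet was 1.96 ± 0.07 higher than in sac3∆ (limma, adjusted p = 1.07e-08). ADH4, a zinc-regulated alcohol dehydrogenase, went from 230.4 ± 23.8 to 71.5 ± 1.51 RPKM and fell by 1.67.

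The membrane receptors of the adiponectin type IZH4 and IZH2 fell by 1.09 and 0.95, the vacuolar exporter ZRT3 by 0.57 and the vacuolar importer ZRC1 by 0.41. The gene of the activator changed little: ZAP1 went from 28.0 ± 1.44 to 24.2 ± 1.49 RPKM, a fall of 0.20 (limma, adjusted p = 0.0114) that was -0.17 and not called without wild type replicate 2. The low-affinity transporter gene ZRT2 was the member that rose, from 89.0, 89.2 and 89.7 RPKM in wild type to 105, 105 and 104 RPKM in R288D, a change of 0.22 ± 0.05. Its R288D values also exceeded those of sac3∆ (88.4, 82.3 and 88.3 RPKM) by 0.27 ± 0.05 (limma, adjusted p = 0.00900). ZAP1 was 0.38 ± 0.06 higher than in sac3∆ too (limma, adjusted p = 0.00551). IZH1, MNT2, FET4, VEL1 and ZRG8 did not pass, at -0.24 to 0.14. IZH1 and MNT2 were called lower with medians set equal (-0.31 and -0.21) and under quantile normalization (-0.28 and -0.21), IZH1 also without wild type replicate 1 (-0.34) or R288D replicate 1 (-0.33), and ZRG8 was called higher with the scaling undone (0.28) and without R288D replicate 1 (0.19).

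ZRT1 and ADH4 lie next to each other near the left end of chromosome VII, and their neighbours were read along the chromosome. From the end inward, COS12 fell by 2.21, YGL262W by 1.30, YPS5 by 0.80 and YGL258W-A by 0.75. VEL1 and MNT2, between these genes and ADH4, did not pass, at -0.04 and -0.14. Beyond ZRT1, FZF1 rose by 0.25, a call lost without wild type replicate 2 (0.21) or R288D replicate 1 (0.18), and HXK2, the main glucose hexokinase gene, fell by 0.62. Over the whole genome, of 144 protein-coding genes within 20 kb of an end, 23.6% rose and 20.8% fell, against 28.0% and 25.3% of the 5090 genes beyond 50 kb. Among the other COS genes, subtelomeric membrane protein genes whose near-identical copies can share reads, COS8 fell by 0.53 while COS10 rose by 0.51 and COS6 by 0.22.

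The largest rises were in mating genes. Haploid cells answer the pheromone of the other mating type through a G protein and a MAP kinase cascade that releases the activator Ste12 from its inhibitors Dig1 and Dig2, and Ste12 turns on the genes of agglutination and cell fusion. The 2 sequences shown are the 150 bases from 300 to 151 bases before PRM1 (chrXIV:110617-110766, plus strand) and AGA1 (chrXIV:703399-703548, plus strand), R64 sequence from RefSeq, because both genes rose steeply and differ in how many Ste12-type motifs this stretch holds. The capitals mark TGAAACA or its reverse complement.
PRM1: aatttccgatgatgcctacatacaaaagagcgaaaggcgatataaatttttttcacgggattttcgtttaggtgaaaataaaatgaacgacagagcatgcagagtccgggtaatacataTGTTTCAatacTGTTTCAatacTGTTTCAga
AGA1: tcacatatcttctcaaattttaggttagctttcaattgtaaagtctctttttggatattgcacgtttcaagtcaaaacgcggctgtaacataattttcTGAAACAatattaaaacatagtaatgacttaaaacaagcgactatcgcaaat
PRM1 held 3 copies in a row and AGA1 1 in these 150 bases. TGAAACA was found on either strand of the 300 bases before 7.04% of all 5655 genes and before 10 of the 15 agglutination and fusion genes.

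Of these 15 genes 13 rose and none fell, against 26.3% and 24.4% of all features, and the median was 1.21 against 0.02. All 15 passed the filter. FIG1, needed for calcium influx and membrane fusion in mating, was at 0.667, 0.847 and 0.837 RPKM in wild type and at 22.1, 20.2 and 19.9 RPKM in R288D. It was barely read in wild type and rose by 3.61, the largest rise of all features (SE 0.10, limma, adjusted p = 2.77e-10). PRM1, which acts in plasma membrane fusion, was at 1.45, 1.25 and 1.26 RPKM in wild type, 14.8 ± 0.200 RPKM in R288D and 10.2, 9.52 and 9.85 RPKM in sac3∆. Its R288D samples lay above both other groups, by 2.77 ± 0.09 against wild type and by 0.54 ± 0.09 against sac3∆ (limma, adjusted p = 0.00682). The a-agglutinin anchor gene AGA1 went from 6.49, 8.25 and 9.68 RPKM to 49.6, 48.3 and 50.6 RPKM, a rise of 2.48 with no overlap. The fusion genes FUS1 and FUS2 each rose by 1.70, the nuclear fusion genes KAR5 and KAR4 by 0.90 and 0.61, and the kinesin partner CIK1 by 0.66. PRM5 and PRM10 did not pass, at 0.13 ± 0.07 and -0.24 ± 0.12, but PRM10 was called lower with medians set equal (-0.31), under quantile normalization (-0.45) and without R288D replicate 2 (-0.36), and PRM5 higher with the scaling undone (0.28) and without wild type replicate 1 (0.20).

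The signalling genes of the pathway rose too, by smaller steps. Of 18 genes 14 rose and none fell, with a median of 0.36, where 26.3% of all features rose and 24.4% fell. The cyclin-dependent kinase inhibitor gene FAR1 rose by 1.46, the G protein regulator SST2 by 1.40, the filamentation partner of Ste12, TEC1, by 1.29, the scaffold STE5 by 0.74, STE12 itself by 0.70 and the G alpha subunit GPA1 by 0.68. The MAP kinase gene FUS3 rose by 0.37 and the inhibitor DIG2 by 0.37. KSS1, the filamentation MAP kinase gene, was at 36.7, 38.1 and 35.4 RPKM in wild type, 43.3, 45.1 and 44.0 RPKM in R288D and 35.7, 30.1 and 33.0 RPKM in sac3∆. R288D was the highest of the 3 groups and sac3∆ the lowest in mean: KSS1 rose by 0.26 against wild type and was 0.42 ± 0.06 higher than in sac3∆ (limma, adjusted p = 0.00375). STE50, STE18, BEM1 and STE11 did not pass, at -0.12 to 0.05, although STE50 was called lower under quantile normalization (-0.24) and BEM1 and STE11 higher with the scaling undone (0.14 and 0.20).

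Genes that mark the 2 haploid mating types moved in the same direction. All 8 genes of the a-cell marker list rose, from 0.35 for the pheromone exporter STE6 to 2.14 for the agglutinin AGA2. STE2, the gene of the alpha-factor receptor, went from 312 ± 8.24 to 690.2 ± 53.1 RPKM. The summed level of the a-cell marker list was 1586 to 1845 RPKM in wild type and 3717 to 4879 RPKM in R288D, so the groups did not overlap. Of the 4 alpha-specific markers 3 rose: the alpha-agglutinin SAG1 by 1.70, MF(ALPHA)1 by 1.76 and MF(ALPHA)2 by 0.90. The alpha-specific sum stayed far lower, at 25.8 to 27.7 RPKM in wild type and 71.5 to 77.7 RPKM in R288D. MF(ALPHA)1, the main alpha-factor gene, was at 3.17, 2.77 and 3.26 RPKM in wild type, 16.3, 11.5 and 10.9 RPKM in R288D and 4.70, 4.28 and 7.28 RPKM in sac3∆. The R288D samples were highest, 1.13 ± 0.18 above sac3∆ (limma, adjusted p = 0.00698), although transcripts of MF(ALPHA)1 and MF(ALPHA)2 are alike enough that reads may be shared. STE3, the receptor that defines alpha cells, was at 7.54, 8.95 and 7.44 RPKM in wild type and 8.73, 7.46 and 6.39 RPKM in R288D and did not pass (-0.08 ± 0.12). No marker was at 0 in any sample. Meiosis genes summed to 97.0 to 104 RPKM in wild type and 126 to 174 RPKM in R288D, with 8 of 15 tested members higher, led by RED1 at 0.91. Of all features 26.3% were higher, and of the scarcest quintile of protein-coding genes 39.5%. The number of meiosis genes higher was 4 without wild type replicate 1 or with only the 2 groups in the fit, and 5 without wild type replicate 3. Whether a change in the make-up of the cultures had a part in the mating results was not tested.

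**Figure D2:**
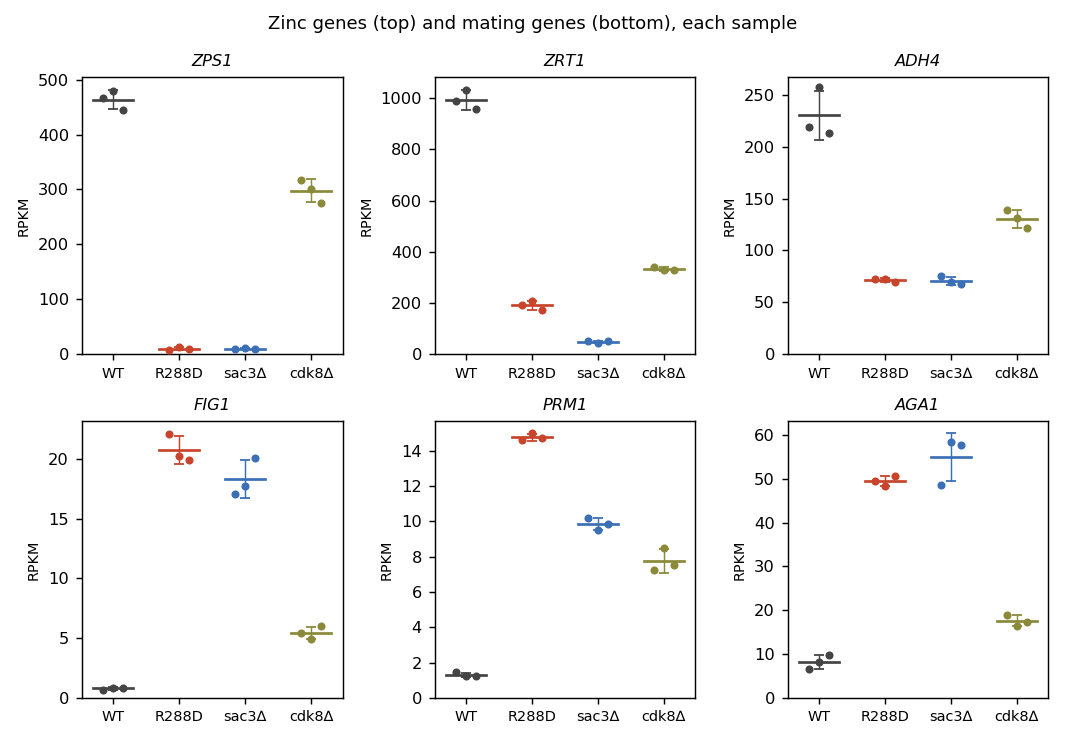
RPKM in each of the 12 samples for the zinc genes ZPS1, ZRT1 and ADH4 (top) and the mating genes FIG1, PRM1 and AGA1 (bottom), with 3 points per group, a line at the mean and bars of 1 SD; each axis starts at 0. ZRT1 in R288D sits between wild type and sac3∆, while PRM1 in R288D sits above every other group.

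Inositol and phospholipid genes were where R288D and sac3∆ went different ways. In yeast the activators Ino2 and Ino4 turn on the genes that make inositol and phospholipids when inositol is short, and the repressor Opi1 holds them back when it is plentiful. The sequences shown lie 300 to 151 bases before INO1 (chrX:136084-136233, minus strand), which encodes the synthase that makes inositol from glucose 6-phosphate, and ITR1 (chrIV:1445618-1445767, minus strand), the main inositol transporter gene, because these 2 genes carried the largest differences. Capitals mark CATGTGAAA, the Ino2/Ino4 motif, in R64 sequence from RefSeq.
INO1: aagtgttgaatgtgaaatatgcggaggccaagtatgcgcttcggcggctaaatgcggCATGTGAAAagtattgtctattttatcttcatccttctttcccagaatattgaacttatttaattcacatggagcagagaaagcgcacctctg
ITR1: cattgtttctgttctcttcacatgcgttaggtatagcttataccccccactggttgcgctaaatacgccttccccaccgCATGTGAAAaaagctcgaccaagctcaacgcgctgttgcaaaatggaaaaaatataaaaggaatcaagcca
On either strand of the 300 bases before the start, the motif was found for 26 of 5655 genes (0.460%) and for 7 of the 23 inositol and phospholipid genes (30.4%).

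INO1 (YJL153C, chromosome X, 134332 to 135933, minus strand) was at 100.4, 98.2 and 93.0 RPKM in wild type, 318, 289 and 269.6 RPKM in R288D, 39.3, 42.4 and 47.0 RPKM in sac3∆ and 25.1, 22.3 and 21.2 RPKM in cdk8∆. No 2 of these groups overlapped, and R288D was the only group above wild type. INO1 rose by 1.58 against wild type (SE 0.08, limma, adjusted p = 6.40e-08) and was 2.74 ± 0.08 higher than in sac3∆ (limma, adjusted p = 1.86e-09). ITR1 was at 1008, 1010.0 and 981 RPKM in wild type, 1453, 1438 and 1326 RPKM in R288D and 822, 809.7 and 839 RPKM in sac3∆. Again R288D lay above and sac3∆ below wild type with no overlap, and the difference of R288D from sac3∆ was 0.77 ± 0.05 (limma, adjusted p = 1.57e-05).

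**Figure D3:**
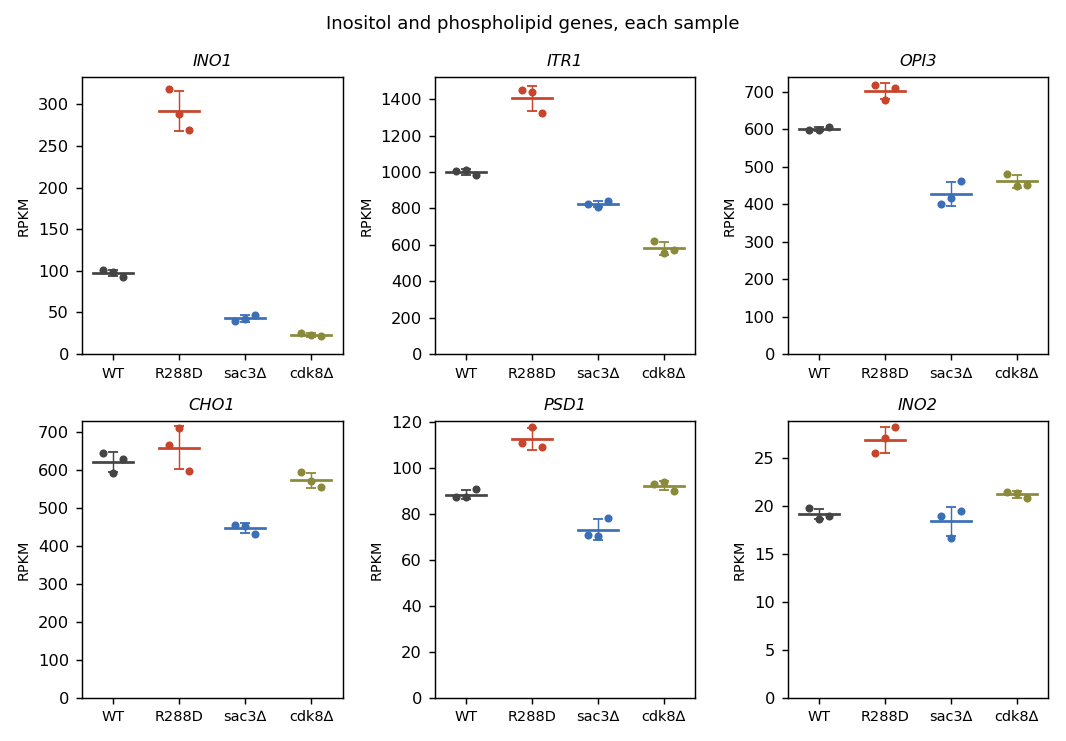
RPKM in each of the 12 samples for INO1, ITR1, OPI3, CHO1, PSD1 and INO2, with 3 points per group, a line at the mean and bars of 1 SD; each axis starts at 0. INO1 and ITR1 are highest in the 3 R288D samples and lower in sac3∆ than in wild type.

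All 23 genes of the list were tested. Against wild type 12 rose, 1 fell and 10 did not pass, with a median of 0.23, where 26.3% of all features rose and 24.4% fell. Against sac3∆ 12 were higher and none lower, with a median difference of 0.34, where 1.05% of all features were higher. These counts were 6 with only the 2 groups in the fit and 13 without R288D replicate 2. OPI3, which makes phosphatidylcholine by methylation, was at 598, 598 and 606 RPKM in wild type, 719, 680.0 and 709.9 RPKM in R288D and 401, 417 and 462 RPKM in sac3∆. The phosphatidylserine decarboxylase gene PSD1 was at 87.2, 87.2 and 90.7, 111, 118 and 109 and 70.8, 70.4 and 78.4 RPKM in the same order. For both genes R288D was above wild type and sac3∆ below it, and R288D exceeded sac3∆ by 0.72 ± 0.06 for OPI3 and 0.62 ± 0.05 for PSD1.

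The other members higher than in sac3∆ were the phosphatidylserine synthase gene CHO1 at 0.55, the activator INO2 at 0.53, the CDP-diacylglycerol synthase gene CDS1 at 0.46, the choline transporter HNM1 at 0.43, the cholinephosphotransferase gene CPT1 at 0.36 and the repressor OPI1 at 0.34. The methyltransferase gene CHO2 (0.24) and the ethanolaminephosphotransferase gene EPT1 (0.46) were also called, but CHO2 was not without R288D replicate 1 (0.23) or sac3∆ replicate 1 or 2 (0.22 each), and EPT1 not without sac3∆ replicate 1 or 3 (0.45 each). CHO1, HNM1, CPT1 and EPT1 did not pass against wild type, and CHO2 fell by 0.26. CHO1 and HNM1 were called higher than wild type under quantile normalization (0.34 and 0.25) and with the library scaling undone (0.23 and 0.29), and HNM1 also without R288D replicate 2 (0.18) or 3 (0.17). EPT1 was called lower with medians set equal (-0.24) and without wild type replicate 3 (-0.25) or R288D replicate 1 (-0.24), and CHO2 lost its call under quantile normalization and with the scaling undone. INO2 rose by 0.47 against wild type, OPI1 by 0.40 and CDS1 by 0.37. GIT1, the glycerophosphoinositol transporter gene, rose by 0.51 against wild type and had a difference of -0.34 ± 0.11 from sac3∆ that did not pass.

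**Figure D4:**
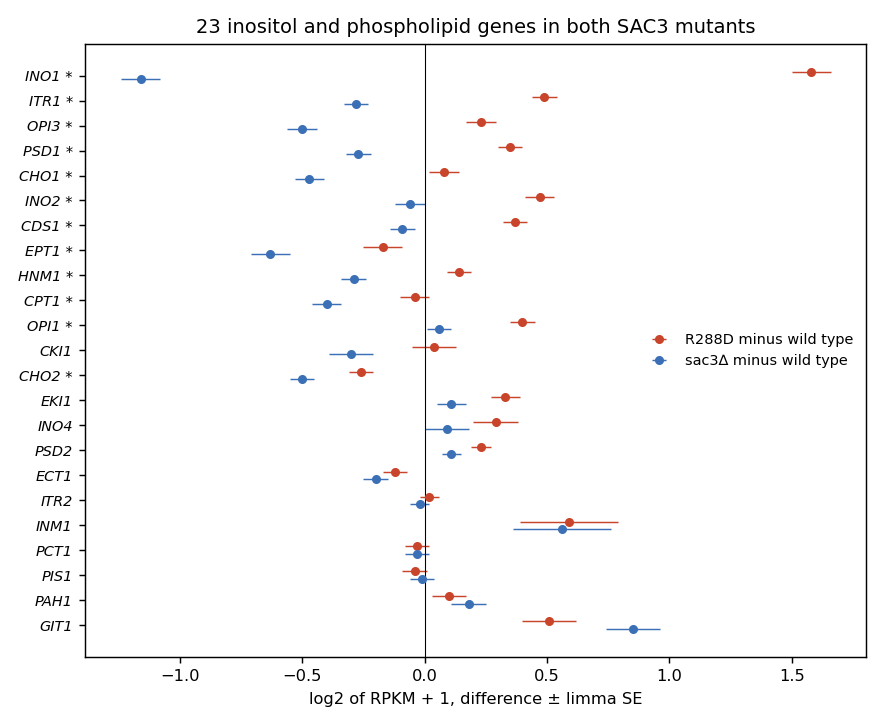
For each of the 23 inositol and phospholipid genes, the log2 change against wild type of R288D and of sac3∆, with the limma standard error; an asterisk marks a called difference between R288D and sac3∆. The 12 marked genes all have R288D to the right of sac3∆.

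Sulfate and methionine genes fell together. These genes take up sulfate, reduce it to sulfide, build methionine and cysteine, and turn methionine into S-adenosylmethionine, and Cbf1 with Met4 activates many of them. MET14, the adenylylsulfate kinase gene, is shown because it fell by more than 2-fold and its upstream stretch holds a Cbf1 motif. The R64 sequence from RefSeq is 300 to 151 bases before the start (chrXI:439536-439685, minus strand), with CACGTG, its own reverse complement, in capitals.
MET14: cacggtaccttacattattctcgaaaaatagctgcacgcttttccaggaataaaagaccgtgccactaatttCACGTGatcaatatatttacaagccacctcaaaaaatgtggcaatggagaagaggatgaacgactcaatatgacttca
CACGTG was found before 3.57% of all genes and before 11 of the 33 sulfate and methionine genes tested.

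Of those 33 genes, 1 list member being under the filter, 19 fell, 4 rose and 10 did not pass, and the median was -0.42. Of all features 24.4% fell and 26.3% rose. MET3, the ATP sulfurylase gene, was at 109.7, 111 and 112 RPKM in wild type and at 31.8, 34.9 and 29.4 RPKM in R288D, and MET14 at 138, 138 and 136 RPKM and 58.8, 56.8 and 54.7 RPKM. Both were clear of overlap, with log2 changes of -1.76 ± 0.07 and -1.26 ± 0.05. The sulfite reductase genes MET5 and MET10 fell by 1.01 and 0.68, MET16 by 0.82 and the sulfate permease SUL2 by 1.08. MET6, the methionine synthase gene, fell by 1.39 from 2365 ± 74.6 RPKM, and the transsulfuration genes CYS3 and CYS4 fell by 1.21 and 0.73. The regulators went the other way: MET4 rose by 0.70, MET31 by 0.30 and MET30, which marks Met4 with ubiquitin, by 0.23. MET4 was at 51.5, 50.4 and 52.2 RPKM in wild type and at 81.5, 87.4 and 83.5 RPKM in R288D, a rise with no overlap.

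The S-adenosylmethionine cycle separated R288D from sac3∆. SAM2, a synthetase gene, was at 842, 817 and 781 RPKM in wild type, 495, 443 and 451 RPKM in R288D and 241, 248 and 251 RPKM in sac3∆. R288D stood between the other groups without overlap, 0.81 below wild type and 0.90 ± 0.05 above sac3∆ (limma, adjusted p = 3.24e-06). Its close copy SAM1, with which reads may be shared, fell by 1.04 and differed from sac3∆ by -0.02 ± 0.05, which did not pass. SAH1, which removes the by-product of methylation, and MET6 were also above sac3∆, by 0.45 ± 0.08 and 0.35 ± 0.05, and SAH1 lost that call without sac3∆ replicate 1 (0.41).

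Of 54 amino acid synthesis genes outside arginine and methionine, 27 fell and 6 rose (median -0.16), and with the library scaling undone 19 fell and 14 rose. Of all features 24.4% fell and 26.3% rose. The list had a median of 177 RPKM in wild type, and in the most abundant quintile of protein-coding genes 58.6% fell. The count of falls thus does not set these genes apart. The serine gene SER33, the lysine genes LYS9 and LYS20 and the glutamate dehydrogenase gene GDH3 fell most, by 0.92, 0.82, 0.79 and 0.76. The largest rises of the list were in ILV5, LEU4, ILV2 and LEU1, of branched-chain synthesis, at 0.60, 0.39, 0.31 and 0.31. Of 13 arginine genes 8 rose, led by the regulator ARG80 at 0.52, and GCN4, the general activator of these pathways, did not pass at 0.07 ± 0.06, although it was called at 0.50 under quantile normalization and at 0.22 with the library scaling undone. In 1-carbon metabolism the glycine cleavage genes rose: GCV1 was at 37.0, 33.4 and 35.0 RPKM in wild type and 119, 119.7 and 121 RPKM in R288D, a change of 1.75 ± 0.06, with GCV2 up by 1.55, GCV3 by 0.95 and SHM2 by 0.59. The folate enzymes MTD1, MIS1 and ADE3 fell by 0.70, 0.55 and 0.35. Of 21 purine genes tested 15 fell and only BAS1, a regulator, rose, at 0.68. The purine list was abundant too, with a median of 157 RPKM in wild type, and 12 fell under quantile normalization. IMD2, 1 of several near-identical IMP dehydrogenase genes that can share reads, fell from 26.3 ± 0.541 to 9.44 ± 1.00 RPKM.

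Genes for using poor nitrogen sources and for amino acid and peptide uptake rose. Of 25 nitrogen catabolite genes tested 16 rose and none fell, with a median of 0.50. Of all features 26.3% rose and 24.4% fell. These nitrogen genes are scarce, with a median of 17.4 RPKM in wild type. In quintiles 1 and 2 of protein-coding genes by abundance, the scarcest, 39.5% and 37.4% rose and 6.28% and 12.6% fell. PUT1, which starts proline breakdown, was at 27.5, 29.6 and 27.5 RPKM in wild type and 104, 143 and 112 RPKM in R288D, and DUR12, which degrades urea, at 22.7, 26.5 and 24.0 RPKM and 88.7, 81.0 and 82.9 RPKM. Neither gene had overlapping groups, and they rose by 2.04 and 1.75. The urea transporter DUR3 rose by 1.43, the ammonium permeases MEP2 and MEP3 by 1.09 and 0.96, and the GATA factor genes GAT1 and GLN3 by 0.78 and 0.34. Of 20 uptake genes read by the SPS amino acid sensor 14 rose and none fell. The peptide transporter PTR2 was the highest of these at 2.17, its repressor gene CUP9 rose by 0.56 and the sensor SSY1 by 0.54.

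Cytoplasmic ribosomal protein genes were lower almost throughout, although copies of a pair can share reads. Of 57 small subunit genes 55 fell, with a median of -0.74, and of 82 large subunit genes 80 fell, with a median of -0.69. None rose in either list. Under quantile normalization 46 small subunit genes fell and 1 rose (median -0.35), and 64 large subunit genes fell and none rose (median -0.26). A rise of 1 small subunit gene was also called with the library scaling undone, and likewise without R288D replicate 2. Genes of mitochondrial ribosomal proteins had 32 rises and no fall among 74 (median 0.15), where 26.3% of all features rose and 24.4% fell. The number that rose was 16 without wild type replicate 2, 21 without R288D replicate 3, 11 with medians set equal and 63 with the library scaling undone, and none fell in these cases. The coactivator gene IFH1, which binds ribosomal protein promoters with Fhl1, was at 27.1, 28.3 and 25.4 RPKM in wild type and at 98.0, 84.3 and 88.6 RPKM in R288D. The groups did not overlap, and the log2 change was 1.71 ± 0.07 (limma, adjusted p = 7.95e-09). The corepressor gene CRF1, whose product competes with Ifh1 for Fhl1, rose by 0.93, SFP1 by 0.59, FHL1 by 0.45 and RAP1 by 0.27, while HMO1 fell by 0.30. Ribosome biogenesis genes had 7 rises and 15 falls among 60, with the falls close to the 24.4% of all features and the rises below the 26.3%. The counts were 16 rises and 10 falls without R288D replicate 2 and 19 rises and 6 falls with the library scaling undone.

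Under the deposited scaling most lipid synthesis genes apart from the phospholipid list fell. Of 20 fatty acid genes 14 fell and 2 rose, and of 26 sterol genes 17 fell and 2 rose. Of all features 24.4% fell and 26.3% rose. Both lists are abundant, with medians of 200.4 and 168 RPKM in wild type. In the most abundant quintile of protein-coding genes 58.6% fell, and the sterol count lies near that share. The falls numbered 9 and 14 with the library scaling undone and 11 and 14 under quantile normalization (medians -0.25 and -0.17). FAS1, a fatty acid synthase subunit gene, was at 808, 856 and 779 RPKM in wild type, 485, 405 and 443 RPKM in R288D and 328, 345 and 352 RPKM in sac3∆, falling by 0.88 while staying 0.37 ± 0.07 above sac3∆ (limma, adjusted p = 0.0131), a difference not called without sac3∆ replicate 1 (0.35) or 2 (0.38). FAS2, the other subunit gene, was in the same order, with a fall of 0.64 and a difference of 0.39 ± 0.06 from sac3∆, and the acetyl-CoA carboxylase gene ACC1 fell by 0.73. The desaturase gene OLE1 fell by 0.78. Among the sterol genes ERG6, the sterol methyltransferase gene, fell most, by 1.07, and ERG5 rose by 0.34. ERG20, which makes farnesyl diphosphate, fell by 0.44 and was 0.28 ± 0.05 above sac3∆.

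Under the deposited scaling most genes of respiration were lower, while the glycolytic counts depended on the normalization. Of 43 respiratory chain and ATP synthase genes tested 32 fell and 2 rose (median -0.37), and 20 fell under quantile normalization (median -0.19). Of all features 24.4% fell and 26.3% rose. INH1, the ATPase inhibitor gene, fell by 1.39, cytochrome c gene CYC1 by 1.21 and COX4 by 0.91. HAP4, the activator subunit that sets expression of many of these genes, rose from 313 ± 12.4 to 452 ± 58.1 RPKM. In glycolysis 13 of 23 genes fell, led by ENO2 at -0.85 ± 0.10, and TDH1, a glyceraldehyde phosphate dehydrogenase gene with close copies, rose by 0.68. Quantile normalization turned those glycolytic counts to 8 rises and 5 falls. The glycolytic genes are abundant, with a median of 1739 RPKM in wild type. In the most abundant quintile of all protein-coding genes 58.6% fell, so the count of falls does not set the glycolytic genes apart. The glucose sensor gene RGT2 rose by 0.40, and HXT1, the transporter gene of high glucose, fell by 0.55. HXT1 was at 96.2, 111 and 112 RPKM in wild type, 76.7, 69.8 and 70.3 RPKM in R288D and 94.0, 92.1 and 121 RPKM in sac3∆, and its difference from sac3∆ was -0.49 ± 0.09 (limma, adjusted p = 0.0254), -0.47 and not called without R288D replicate 3.

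Stress genes did not move as a block. Of 50 Msn2 and Msn4 genes 15 rose and 5 fell, where 26.3% and 24.4% of all features rose and fell. Without R288D replicate 2 the counts were 13 and 15, and under quantile normalization 20 and 1 (median 0.28). Of 31 heat shock and chaperone genes 15 fell and 4 rose, but under quantile normalization 8 fell and 11 rose, and with the library scaling undone 9 did each. The falls were led by the ribosome-associated SSB1 at -0.87, SSA2 at -0.82 and HSC82 at -0.75. The small heat shock gene HSP26 rose by 1.82, from 199 ± 49.2 to 691 ± 45.1 RPKM. SSA3, an Hsp70 gene that is off in growing cells, was at 18.0, 18.6 and 18.0 RPKM in wild type, 40.9, 40.6 and 43.9 RPKM in R288D and 24.9, 25.2 and 27.1 RPKM in sac3∆. R288D was highest without overlap, by 1.16 ± 0.06 against wild type and 0.68 ± 0.06 against sac3∆ (limma, adjusted p = 1.05e-04). YHB1, the flavohemoglobin gene that detoxifies nitric oxide, fell from 410.5 ± 1.68 to 135 ± 3.86 RPKM, by 1.59, and was 0.39 ± 0.05 above sac3∆. Of 35 proteasome genes 28 fell, none by more than 0.39, and RPN4, their activator gene, rose by 0.56. The proteasome falls depended on the scaling: 8 genes fell under quantile normalization (median -0.03) and 10 with the library scaling undone (median -0.05).

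Cell cycle genes rose and histone genes fell. Mitotic genes of the Forkhead cluster had 20 rises and no fall among 23 tested, with a median of 0.42. Of all features 26.3% rose and 24.4% fell. The polo kinase gene CDC5 rose by 0.92 and the B cyclin genes CLB1 and CLB2 by 0.83 and 0.72. CLB1 was at 53.1, 54.2 and 51.0 RPKM in wild type, 102, 89.0 and 92.2 RPKM in R288D and 74.8, 75.3 and 77.1 RPKM in sac3∆, and R288D was higher than both, by 0.31 ± 0.05 against sac3∆ (limma, adjusted p = 0.00921), a difference not called without sac3∆ replicate 1 (0.30). The Forkhead motif GTAAACA, on either strand, stood before 12 of the 23 genes (52.2%) and before 7.25% of all genes. Of 24 genes of the G1 to S transition 18 rose and 3 fell, among them the cyclins CLB6 at 1.29, PCL2 at 1.00 and CLN1 at 0.65. Of 11 histone genes 10 fell, most of all HTA2 by 0.70 and HHF2 by 0.48, where gene pairs can share reads, and the centromeric variant CSE4 did not pass. Under quantile normalization 4 histone genes fell, with a median of -0.05, and with the library scaling undone 8 fell and 1, CSE4, rose.

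Of 23 DNA damage genes tested 11 rose and 1 fell, where 26.3% and 24.4% of all features rose and fell. The number that rose was 8 with medians set equal or without R288D replicate 3, and 16 with the library scaling undone. RNR3, a ribonucleotide reductase gene induced by damage, was at 6.31, 6.86 and 6.64 RPKM in wild type, 13.8, 13.0 and 14.6 RPKM in R288D and 9.81, 10.8 and 10.8 RPKM in sac3∆. All 3 R288D values lay above all wild type values, a rise of 0.96 (limma, adjusted p = 1.11e-06). HUG1, a checkpoint-induced inhibitor of the same enzyme, rose by 1.45, DIN7 by 0.99 and the checkpoint kinase gene RAD53 by 0.68.

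At the cell surface single genes stood out. The cell wall mannoprotein gene CWP1 was at 260.0, 275 and 292 RPKM in wild type and 59.9, 89.9 and 65.2 RPKM in R288D, a fall of 1.95, and the alternative glucan synthase gene GSC2 was at 40.6, 45.3 and 42.7 RPKM and 121, 124 and 115 RPKM, a rise of 1.46. The groups did not overlap for either gene. Filamentation regulators rose, with HMS1 at 1.59, PHD1 at 0.77 and FLO8 at 0.58.

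Iron and copper genes made up 7 of the 20 features that were lower in R288D than in sac3∆. Of 34 genes tested 16 rose and 4 fell against wild type, where 26.3% and 24.4% of all features rose and fell. Against sac3∆ 7 were lower and 2 higher, where 0.327% of all features were lower and 1.05% higher. The number lower ranged from 1 to 9 over the alternatives. FIT2, a cell wall mannoprotein gene that helps to retain siderophore iron, was at 53.8, 55.8 and 54.5 RPKM in wild type, 44.9, 44.7 and 48.0 RPKM in R288D and 87.7, 83.0 and 76.8 RPKM in sac3∆. R288D was below and sac3∆ above wild type with no overlap, -0.83 ± 0.07 apart (limma, adjusted p = 3.71e-05). The fall of FIT2 against wild type was -0.10 and not called with the library scaling undone (limma, adjusted p = 0.258), and that of ENB1 likewise (-0.10). FIT3 (-0.52), the reductase gene FRE5 (-0.84), the siderophore transporters ENB1 (-0.42), ARN2 (-0.40) and SIT1 (-0.31) and the multicopper oxidase gene FET3 (-0.36) were also lower than in sac3∆. Several of these calls rested on single samples: leaving out 1 sample at a time ended the call of FIT3 in 4 of 6 cases (-0.55 to -0.38), of FRE5 and SIT1 in 5 of 6 and 4 of 6 cases (-0.91 to -0.71 and -0.34 to -0.27), and of ARN2 without sac3∆ replicate 1 (-0.35). FRE5 was also scarce, at 0.664, 1.05 and 1.14 RPKM in R288D. The copper transporter CTR1 was at 263, 279 and 274 RPKM in wild type, 299, 290.0 and 289 RPKM in R288D and 198, 202 and 194 RPKM in sac3∆, so that R288D was 0.56 ± 0.04 above sac3∆ (limma, adjusted p = 2.50e-05). The difference of CTR1 from wild type, 0.11 ± 0.04, did not pass under the deposited scaling but was called at 0.29 under quantile normalization and 0.26 with the scaling undone. FRE1, the main surface reductase gene for iron and copper, was also above sac3∆, by 0.36 ± 0.06. Against wild type FRE1 did not pass, and leaving out 1 sample gave -0.05 to 0.07, but it was called at 0.15 with the scaling undone. FRE7, a copper-regulated reductase gene that is not in this list, rose by 1.47 against wild type and was 0.88 ± 0.08 above sac3∆.

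Of 20 mRNA export genes 5 rose and 6 fell, close to the 26.3% and 24.4% of all features, so the counts do not set these genes apart. YRA1, the export adaptor gene, was at 580.4, 549 and 543 RPKM in wild type and 1000.2, 1035 and 1023 RPKM in R288D, and the helicase gene DBP5, which releases the exporter at the pore, at 217, 212 and 205 RPKM and 135, 121 and 134 RPKM. Both were clear of overlap, with changes of 0.87 ± 0.05 and -0.70 ± 0.06. The poly(A) binding protein gene NAB2 rose by 0.74, the THO subunit HPR1 by 0.46 and the pore basket gene MLP2 by 0.35, and the helicase SUB2 fell by 0.51. The exporter genes MEX67 and MTR2 did not pass, at -0.01 and 0.06. With the library scaling undone the counts were 9 rises and 4 falls, and MEX67 and MTR2 were called higher, at 0.14 and 0.21.

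Under the deposited scaling the direction of change followed abundance and length, and quintiles were not counted under any other scaling. Under quantile normalization, glycolytic genes, which are abundant, had a median of -0.02 instead of -0.38, and large ribosomal subunit genes -0.26 instead of -0.69. In quintiles of the 5655 protein-coding genes by mean RPKM over the 12 samples, the share that rose went from 39.5% in the scarcest through 37.4%, 30.9% and 20.5% to 10.5% in the most abundant. The share that fell went from 6.28% through 12.6%, 17.1% and 31.7% to 58.6%. In quintiles by exon length the share that rose went from 14.6% among the shortest genes to 45.0% among the longest. That order remained within the 4 lower abundance quintiles, where 18.3%, 22.0%, 30.0%, 40.2% and 49.8% rose from shortest to longest. Among genes other than those of ribosomal proteins, 165 with more than 1 exon had 12.7% rises and 34.5% falls, against 28.9% and 23.1% of 5351 with 1 exon.

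**Figure D5:**
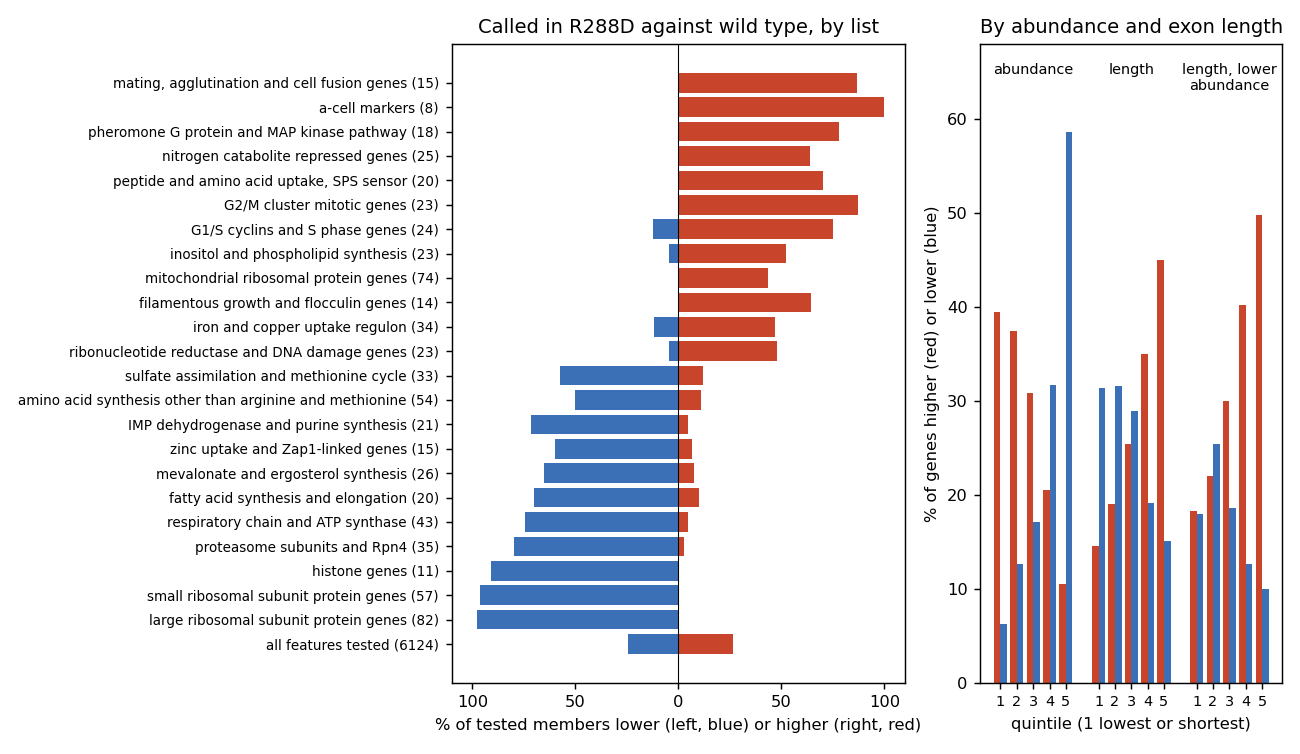
Left, for 23 gene lists, the percentage of tested members that were called higher (red, to the right) or lower (blue, to the left) in R288D against wild type, with the number tested in brackets and all 6124 features at the bottom; right, the same percentages in quintiles of mean RPKM, of exon length, and of exon length within the 4 lower abundance quintiles. All bars start at 0, the a-cell, mating and mitotic lists have no blue bar, and the ribosomal protein lists have no red bar.

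Besides SAC3 itself, 7 genes rose in R288D and were called lower in sac3∆ against the same wild type samples: INO1, ITR1, OPI3, PSD1, KSS1, HUA2 and EHT1. With SAC3 these are 0.131% of all features. The rise of HUA2 against wild type was small, at 0.17 ± 0.06, was lost without any 1 of the 6 samples (0.16 to 0.19) and was -0.01 under quantile normalization. EHT1, an acyltransferase gene of ethyl ester synthesis, was at 153, 163 and 167 RPKM in wild type, 181, 189.6 and 175 RPKM in R288D and 139.9, 143 and 135 RPKM in sac3∆, so the groups stood in the same order as for ITR1. The opposite pattern, lower in R288D and higher in sac3∆, was called for FIT2, ENB1, COS8 and HEM25, a mitochondrial glycine carrier gene of heme synthesis. HEM25 fell by 0.19 against wild type, a call lost without wild type replicate 1 or 2 (-0.18 each) or R288D replicate 1 (-0.12), and its difference of -0.36 ± 0.07 from sac3∆ was not called without sac3∆ replicate 1 (-0.34) or 3 (-0.37). COS8 was at 82.9, 84.6 and 76.3 RPKM in wild type, 54.9, 60.3 and 52.7 RPKM in R288D and 92.9, 94.3 and 91.8 RPKM in sac3∆, with R288D lowest and -0.72 ± 0.06 from sac3∆ (limma, adjusted p = 2.42e-05).

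Among features without a standard name, YNR064C had the widest gap below sac3∆. It was chosen for that gap after the values were seen. YNR064C was at 1.31, 2.22 and 2.44 RPKM in wild type, 2.34, 5.21 and 3.45 RPKM in R288D and 19.6, 17.6 and 18.4 RPKM in sac3∆. Its R288D values lay far below those of sac3∆ and nearer to those of wild type, -2.11 ± 0.21 from sac3∆ (limma, adjusted p = 1.96e-04). YNR064C was also called higher in R288D than in wild type. That call was lost with only the 2 groups in the fit (0.62), without wild type replicate 1 (0.44) and without R288D replicate 2 (0.39) or 3 (0.63). YLR012C had a wide gap in the other direction, at 2.17, 2.99 and 1.46 RPKM in wild type, 6.82, 10.2 and 6.75 RPKM in R288D and 2.92, 2.42 and 1.15 RPKM in sac3∆. Both are scarce, and YLR012C is a difference of 1.52 ± 0.24 from sac3∆ (limma, adjusted p = 0.00670).

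Small nuclear and nucleolar RNAs were read mostly without a call. Of 85 tested, 12 fell and 3 rose, both below the shares of all features (24.4% and 26.3%), with a median of -0.26. The falls numbered 3 without wild type replicate 1, 5 without R288D replicate 2 and 20 with medians set equal, and the counts were 7 rises and 8 falls (median -0.06) under quantile normalization and 5 and 5 with the scaling undone. The 3 that rose were the spliceosomal RNAs SNR19 (U1) by 0.62 and LSR1 (U2) by 0.49, and RPR1, the RNA of RNase P, by 0.45. SNR68, a snoRNA that guides methylation of ribosomal RNA, fell most, from 198 ± 44.3 to 58.7 ± 52.8 RPKM.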

How the data were processed

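Total RNA was extracted with hot phenol from log-phase cultures, ribosomal RNA was removed and libraries were made with an NEB kit, per the labels' protocols. The deposited values are RPKM computed by the authors, 1 column for each of 12 samples in 4 groups of 3. The submitters' processing notes name, with no role, the tools limma, edgeR, HTSeq 0.5.4p3, TopHat2 2.0.9 and R 3.0.1 and build R64. Whether counting used the strand is not given in the sources used here, so reads of overlapping genes cannot be told apart. Values multiplied by R64 exon length fell on whole multiples of 1 read within 0.1 read for 99.3% to 99.7% of values worth under 300 reads, which gave the read totals and the library scaling.

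Of 7126 features, 1002 were below a mean of 1 RPKM, 305 of them at 0 in every sample, and 6124 were tested, 369 of which had no R64 entry. limma 3.58.1 (R 4.3.3) was fitted to log2(RPKM + 1) over all 12 samples with 1 mean per group and a mean trend, leaving 8 residual degrees of freedom, with two-sided tests and Benjamini-Hochberg adjustment at 0.05. The median SE against wild type was 0.0734. The fit was tested on simulated data. Tables and plots used Python 3.11.15, pandas 2.3.3, numpy 2.4.6 and matplotlib 3.10.9.

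The comparison, the 56 gene lists (55 with tested members) and the motifs were chosen with earlier results of these data known. Lists are described by counts and medians with no test. Named genes were taken by rule: the members of small lists and of the TREX-2 and Mediator kinase and middle lists, the 15 largest called rises and falls whose groups did not overlap, up to 4 called members per list and direction, and the 8 largest differences from sac3∆ in each direction. The text gives those the results turn on, and others chosen after their values were seen, among them the neighbours of ZRT1. Upstream sequences are RefSeq R64, counted from the coding start. The alternatives tried were other pseudocounts, filters, scalings and variance models, only the 2 groups compared, a replicate block and leaving out each sample.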

Additional observations from a re-analysis of the deposited data

Results flagged for a closer look

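For 11 genes R288D and sac3∆ were called in opposite directions against the wild type samples they share, and the direct difference between R288D and sac3∆ passed limma's test. In log2 units of R288D minus sac3∆, the difference was 2.74 for INO1, 0.77 for ITR1, 0.72 for OPI3, 0.62 for PSD1, 0.43 for HUA2, 0.42 for KSS1 and 0.38 for EHT1, all higher in R288D. It was -0.83 for FIT2, -0.72 for COS8, -0.42 for ENB1 and -0.36 for HEM25, all lower in R288D. INO1, ITR1, OPI3, PSD1, FIT2 and COS8 kept a called difference with only the 2 groups in the fit, and HUA2, KSS1, EHT1, ENB1 and HEM25 did not. The opposite calls depended on the scaling for 5 of the genes: with the authors' scaling undone the falls of FIT2 (-0.10), ENB1 (-0.10) and HEM25 (-0.05) against wild type were not called, and with medians set equal the rises of EHT1 (0.10) and HUA2 (0.10) were not. ENB1 was at 66.8, 61.5 and 61.0 RPKM in wild type, 49.9, 56.2 and 52.5 RPKM in R288D and 73.1, 72.7 and 66.9 RPKM in sac3∆, and HUA2, a gene of the actin patch, at 16.3, 17.1 and 16.8, 18.7, 19.1 and 19.3 and 14.1, 13.4 and 14.0 RPKM in the same order.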

How the results depend on the processing

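The count against wild type was 2588 to 3404 over the settings tried. With the authors' library scaling undone 2580 features were higher and 824 lower. Leaving out 1 sample gave 2730 to 3135 calls, 1422 to 1577 higher and 1304 to 1558 lower, and a SAC3 difference of 0.28 to 0.34, which at a pseudocount of 0.1 was 0.31 and missed the threshold (limma, adjusted p = 0.0983). Against sac3∆, leaving out 1 sample gave 53 to 468 calls, 42 to 230 higher and 11 to 238 lower, and with only the 2 groups compared 17, of which 13 were higher and 4 lower. The share of calls against wild type that were higher was 51.8% as reported, 38.8% with medians set equal, 48.9% under quantile normalization and 75.8% with the scaling undone. A replicate block gave 3009 calls against wild type and 63 against sac3∆. The replicate numbers were not shown to pair the samples: same-numbered R288D and wild type samples had correlated deviations of 0.053, -0.048 and -0.037, and R288D samples 1, 2 and 3 correlated best with wild type samples 1, 3 and 2.

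Of 175 genes named and called against wild type, 26 lost the call under some setting and 10 on leaving out a sample. The lost calls were of ARN2, CHO2, CSE2, ENB1, FIT2, HEM25, SEM1, SRB7 and ZAP1 with the scaling undone, of COS6, EHT1, FZF1, HUA2, RGR1, ROX3, SSN2, SSN3 and THP1 with medians set equal, of ADE3, CDC31, CHO2, DIG2, FZF1, HMO1, MET30, MET31, SAH1, SEM1, SRB7, SSN2, SSN3 and THP1 under quantile normalization, and of CSE2, HEM25, HUA2, SRB7, SSN2, YNR064C and ZAP1 with only the 2 groups. SSN3 also lost its call at a pseudocount of 0.1, with no filter and under the replicate block, and SRB7 with no filter, with no mean trend and under the replicate block. Genes named as not passing became called too: CHO1, CTR1, GCN4 and HNM1 higher and IZH1, MNT2, PRM10, SSN8, STE50 and YJR084W lower under quantile normalization, CHO1, CSE4, CTR1, FRE1, GCN4, HNM1, MTR2, PRM5, SOH1, STE11, ZRG8, BEM1 and MEX67 higher with the scaling undone, EPT1, FRE5, IZH1, MNT2, PRM10, SSN8 and YJR084W lower with medians set equal, and FRE5 lower with no filter or no mean trend. Leaving out a sample did so for EPT1, HNM1, IZH1, MTR2, PRM5, PRM10, SSN8 and ZRG8. Of 49 genes called against sac3∆, 33 lost the call under some setting and 15 on leaving out a sample. Reversed signs were found for genes that had not passed and for HUA2. With the scaling undone these were BEM1 at 0.14, CPT1 at 0.11, FET4 at 0.09, MEX67 at 0.14, MNT2 at 0.01, STE18 at 0.12, STE3 at 0.05, STE50 at 0.02, SUS1 at 0.12, VEL1 at 0.07 and YJR084W at 0.02. With medians set equal they were CSE4 at -0.02, FRE1 at -0.07, MTR2 at -0.01 and STE11 at -0.02, and under quantile normalization CPT1 at 0.10, CSE4 at -0.01, HUA2 at -0.01, STE11 at -0.03, STE18 at 0.06 and SUS1 at 0.05. Leaving out 1 sample gave ranges of -0.03 to 0.02 for BEM1, -0.08 to 0.00 for CPT1, -0.00 to 0.07 for CSE4, -0.11 to 0.01 for FET4, -0.05 to 0.07 for FRE1, -0.04 to 0.03 for MEX67, -0.01 to 0.16 for MTR2, -0.00 to 0.09 for STE11, -0.07 to 0.02 for STE18, -0.18 to 0.02 for STE3, -0.08 to 0.03 for SUS1 and -0.16 to 0.04 for VEL1. The cause of these changes was not tested. Features near 1 RPKM rest on few reads, which limits FRE5 and YLR012C.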
